A study of Homo sapiens with 6 samples.

Results

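YAP1, its paralog WWTR1 (the protein TAZ), the DNA-binding factor TEAD1 and 7 genes known as targets or regulators of these factors were followed in MKN45 cells, a line derived from a human gastric cancer. The 10 genes were chosen by name, as CYR61, CTGF, ANKRD1, AMOTL2, AJUBA, LATS2 and PTPN14 beside those 3 factors. Of the 10, 9 were among the 11658 genes of the gene table, and they had 36 of the 30432 transcripts of the transcript table. ANKRD1, a nuclear ankyrin-repeat protein and a widely used readout of YAP, was not among the genes analysed here. The control group was 3 libraries of cells transfected with a control shRNA, C1 to C3. The target group was 3 libraries of cells transfected with an shRNA against the transcript tcons_00001221, T1 to T3. An shRNA is a hairpin RNA that the cell cuts into a small interfering RNA to lower the matching transcript. The labels name 1 cell line and 1 target shRNA. No label states that replicates are independent cultures, so the spread behind each p-value is that of these 6 libraries and could be technical. The targeted transcript was not analysed here, because 0 identifiers in the tables matched it, so the groups are named by their labels.

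YAP and TAZ are transcriptional coactivators held in check by the Hippo pathway. In this pathway the kinases LATS1 and LATS2 phosphorylate them, which keeps them in the cytoplasm or marks them for degradation. In the nucleus they bind TEAD factors, which recognise DNA. CYR61, CTGF and ANKRD1 are among the best known genes activated in this way, and LATS2, AMOTL2, AJUBA and PTPN14 encode regulators of the pathway that are themselves induced by YAP. Since the pathway acts mainly on the phosphorylation, location and stability of YAP and TAZ, their RNA levels do not report their activity.

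TEAD factors recognise the sequence GGAATG, which reads CATTCC on the other strand. The promoter windows below, each from 250 bases before to 50 bases after a gene start, are shown because they contrast windows with and without this sequence: CTGF with its several matches, LATS2 with a single match, and both starts of AMOTL2, of which start 1 has none. Sequences are from RefSeq on the build GRCh38.p14, read 5′ to 3′ on the strand of the gene, with every match to GGAATG or CATTCC in capitals. They are CTGF (listed as CCN2) at chr6:131951323-131951622, both starts of AMOTL2 at chr3:134375368-134375667 and chr3:134374398-134374697, and LATS2 at chr13:21061537-21061836, all on the minus strand.
CTGF: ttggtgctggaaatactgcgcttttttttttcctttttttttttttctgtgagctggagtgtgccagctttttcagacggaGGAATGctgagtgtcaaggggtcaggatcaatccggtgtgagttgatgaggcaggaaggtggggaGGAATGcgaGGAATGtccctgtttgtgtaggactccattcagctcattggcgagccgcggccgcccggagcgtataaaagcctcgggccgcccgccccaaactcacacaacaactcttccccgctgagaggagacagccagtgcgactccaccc
AMOTL2 start 1: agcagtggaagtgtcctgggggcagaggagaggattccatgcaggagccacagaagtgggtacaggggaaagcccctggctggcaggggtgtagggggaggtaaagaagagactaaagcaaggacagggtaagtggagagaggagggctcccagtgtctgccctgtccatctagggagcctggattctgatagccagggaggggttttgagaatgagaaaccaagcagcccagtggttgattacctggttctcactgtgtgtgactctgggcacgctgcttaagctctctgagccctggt
AMOTL2 start 2: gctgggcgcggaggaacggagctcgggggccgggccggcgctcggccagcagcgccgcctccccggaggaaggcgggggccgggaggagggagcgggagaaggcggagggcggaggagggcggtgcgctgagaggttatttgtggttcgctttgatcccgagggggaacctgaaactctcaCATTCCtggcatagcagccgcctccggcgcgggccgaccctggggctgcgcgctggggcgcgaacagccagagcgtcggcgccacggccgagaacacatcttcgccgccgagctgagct
LATS2: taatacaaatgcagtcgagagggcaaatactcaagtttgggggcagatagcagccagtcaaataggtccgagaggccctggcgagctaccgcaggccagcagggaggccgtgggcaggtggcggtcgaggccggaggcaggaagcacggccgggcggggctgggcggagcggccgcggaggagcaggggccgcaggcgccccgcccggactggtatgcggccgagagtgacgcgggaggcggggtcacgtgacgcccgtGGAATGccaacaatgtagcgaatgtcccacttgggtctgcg

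The CTGF window held 3 matches, with first bases at positions -169, -104 and -95 from the gene start. At least 3 matches were found in 0.128% of the 35116 RefSeq windows of this length, and at least 1 in 14%. The ANKRD1 window held 2 matches. YAP1, PTPN14, LATS2, the second start of AMOTL2 and the second start of AJUBA had 1 each, and both starts of WWTR1 and the first starts of AMOTL2 and AJUBA had 0. In all, 7 of the 11 windows of the 8 members with a window held a match. The members were chosen by name as genes of this pathway, and WWTR1, AMOTL2 and AJUBA entered with both starts. This count is therefore not a test against the share of all windows. CYR61 and TEAD1 were not among the windows. A match is a run of letters and is not evidence that a TEAD factor binds there in these cells.

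**Figure D1:**
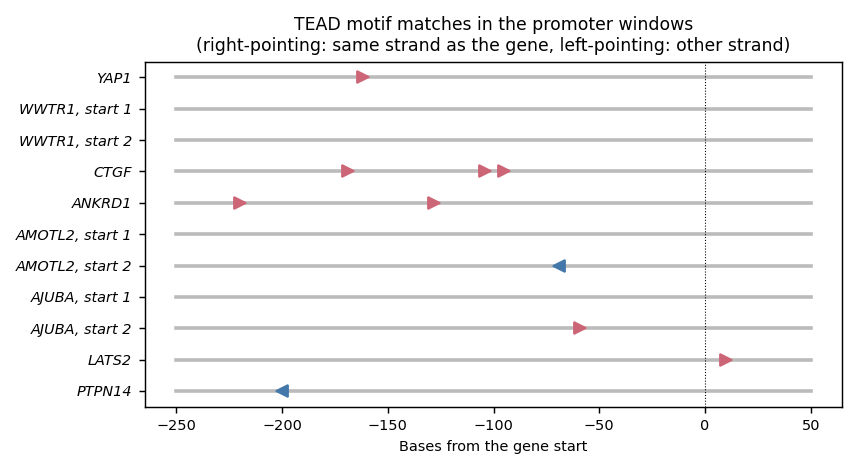
Positions of GGAATG (right-pointing) and CATTCC (left-pointing) in the promoter windows of the members, in bases from the gene start. CTGF has 3 matches, all before its start, while the 1 match of LATS2 lies at position 10, just after it.

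Levels are in FPKM, which divides fragments by transcript length and by the mapped total of the library, and positions are on GRCh37. The sum over genes ranged from 186226 to 192101 in the 6 libraries. The read depth is unknown, and counting errors are therefore not given. The labelled cell type was checked against 20 epithelial and gastrointestinal carcinoma markers, of which 10 were in the gene table. KRT7 (175 FPKM in control libraries), MET (82.8), MUC13 (79.1), KRT18 (60.9) and EPCAM (7.26) were among them. CDH1, KRT19, CLDN3, CEACAM5, CEACAM6, ESRP1, GRHL2, CDH17, TFF3 and VIL1 were not among the genes analysed here. Of 20 fibroblast and mesenchymal markers 13 were in the table, with COL5A1 at 260 and VIM at 203 FPKM in control libraries. FN1 (25.5), SNAI2 (17.2), LUM (12.6) and CDH2 (6.66) were lower. COL1A1, TWIST1, ZEB1, DCN, TAGLN, ZEB2 and ACTA2 lay between 0.646 and 3.33 FPKM. COL1A2, COL3A1, COL6A3, PDGFRB, PDGFRA, THY1 and SPARC were not among the genes analysed here. No gene analysed here had a mean under 0.5 FPKM in its higher group, so a gene not among them may still be expressed. Each list thus had some genes at high levels and others low or not analysed, and the cells are called MKN45 by their label.

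CYR61 and CTGF were lower in every target library than in every control library, and TEAD1 was higher. The other 6 members had overlapping groups, and no difference passed the test across all genes. Differences were tested with limma on log2(FPKM + 1), with p-values adjusted over all 10675 tested genes by the Benjamini-Hochberg method and called at 0.05. All 9 members reached the filter of at least 1 FPKM in at least 3 libraries. Of them 0 passed, where 0.749% of all tested genes did. At an unadjusted p under 0.05 there were 2 of 9, CYR61 and TEAD1, where 16.1% of all tested genes lay, and limma without the trend and robust limma also called 0 members. The groups did not overlap, with target libraries lower, for 2 members (7.18% of all tested genes) and, with target libraries higher, for 1 member (16.6%); in either direction this held for 23.7% of all tested genes. The median log2 change of the 9 members was -0.0018, beside 0.03 for all tested genes. In bulk RNA, a change in the share of cells that express a gene and a change in the RNA per cell cannot be told apart.

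**Figure D2:**
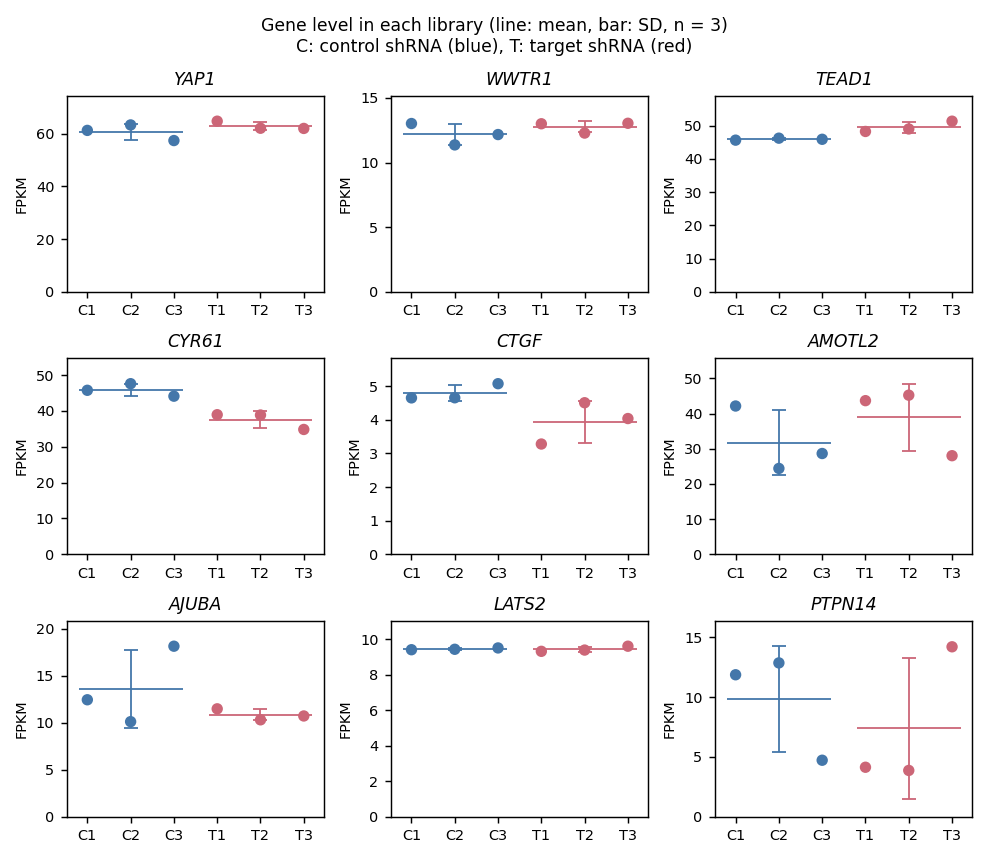
FPKM of the 9 member genes in each control (C1 to C3, blue) and target (T1 to T3, red) library, with the group mean as a line and the SD over 3 libraries as a bar. CYR61 and CTGF are lower in all target libraries, LATS2 lies between 9.32 and 9.61 in all 6, and PTPN14 splits into high and low libraries within both groups.

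YAP1, the main coactivator, lies on chromosome 11 at 101981192 to 102104154, plus strand. It measured 61.3, 63.4 and 57.5 FPKM in the control libraries and 64.8, 62.1 and 62.1 FPKM in the target libraries. The groups overlapped, with means of 60.7 ± 3.02 and 63.0 ± 1.57 FPKM (SD, n = 3 per group). Its log2 change was 0.05 with an SE of 0.05 and a 95% interval from -0.06 to 0.17 (limma adjusted p = 0.627). No interval given here is adjusted for the number of genes.

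WWTR1 encodes TAZ, which shares the TEAD-binding role of YAP, and lies on chromosome 3 at 149235022 to 149454501, minus strand. It measured 13.0, 11.4 and 12.2 FPKM in control and 13.0, 12.3 and 13.0 FPKM in target libraries, so its groups overlapped. The log2 change was 0.06 with an SE of 0.06 and an interval from -0.08 to 0.21 (limma adjusted p = 0.639). On the FPKM scale, YAP1 made up 83.3% ± 1.33 of the summed level of both coactivators in control and 83.1% ± 0.448 in target libraries (SD, n = 3 per group). The balance between the paralogs differed by less than the spread between libraries (two-sided exact permutation p = 1; the smallest p that 3 against 3 allows is 0.1).

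TEAD1, the DNA-binding partner, lies on chromosome 11 at 12696138 to 12966030, plus strand. It measured 45.6, 46.2 and 45.9 FPKM in control and 48.3, 49.0 and 51.4 FPKM in target libraries. Every target library was above every control library, by a small margin. The means were 45.9 ± 0.299 and 49.5 ± 1.62 FPKM (SD, n = 3 per group). This is a log2 change of 0.11 (SE 0.04, interval from 0.01 to 0.20, limma adjusted p = 0.270). Rescaling all libraries to the same median reduced the change to 0.07 (adjusted p = 0.431). TEAD1 was also the most abundant of the 4 TEAD genes, with 65.6% ± 0.865 of their summed FPKM in control and 69.3% ± 1.26 in target libraries. TEAD2, a family member, measured 11.4, 10.2 and 9.39 FPKM in control and 8.56, 8.61 and 7.38 FPKM in target libraries. Its groups did not overlap either, with target libraries lower (7.18% of all tested genes), and its log2 change of -0.30 did not pass (limma adjusted p = 0.209). TEAD2 made up 14.7% ± 1.35 of the family sum in control and 11.5% ± 1.13 in target libraries. For both shares the groups did not overlap, with a two-sided exact permutation p of 0.1, the smallest possible. Both shares are parts of the same sum and restate the levels above, so they are not separate results. TEAD3 (8.58 and 8.67 FPKM) and TEAD4 (5.17 and 5.07 FPKM) had overlapping groups.

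CYR61, a secreted matricellular protein and an early YAP target, lies on chromosome 1 at 86046444 to 86049645, plus strand. It measured 45.8, 47.6 and 44.1 FPKM in control and 38.9, 38.9 and 34.8 FPKM in target libraries. The highest target library was below the lowest control library. The means were 45.8 ± 1.74 and 37.5 ± 2.35 FPKM (SD, n = 3 per group), a ratio of 0.819. The log2 change was -0.28 with an SE of 0.06 and an interval from -0.42 to -0.14, and it did not pass (limma adjusted p = 0.112). Over 15 other settings the change was between -0.32 and -0.23, with adjusted p from 0.0704 to 0.245. CYR61 has 1 listed transcript, CYR61-001, which measured 49.0 ± 1.86 and 40.1 ± 2.44 FPKM.

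CTGF, also a secreted matricellular protein, lies on chromosome 6 at 132269316 to 132272513, minus strand, and its promoter is the one with 3 matches above. It measured 4.66, 4.66 and 5.08 FPKM in control and 3.28, 4.51 and 4.04 FPKM in target libraries. The groups did not overlap, although T2 lay just below the lowest control library. The ratio of the means was 0.822 and that of CYR61 was 0.819. The log2 change was -0.24 with an SE of 0.10 and an interval from -0.48 to 0.0044 (limma adjusted p = 0.316). Without T1, the lowest library, it was -0.14 (adjusted p = 0.496).

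LATS2, the kinase that phosphorylates YAP and is also induced by it, had the most even level of the members. The gene spans 21547171 to 21635686 on the minus strand of chromosome 13 and measured 9.42, 9.44 and 9.52 FPKM in control and 9.32, 9.40 and 9.61 FPKM in target libraries. The highest of the 6 libraries was 1.03 times the lowest. The log2 change was -0.0018 with an SE of 0.04 and an interval from -0.10 to 0.10 (limma adjusted p = 0.989). LATS1, the other kinase of the pair, measured 4.48 ± 0.182 and 4.93 ± 0.149 FPKM (SD, n = 3 per group), with target libraries all higher (limma adjusted p = 0.361). LATS2 made up 67.9% ± 0.900 of the summed FPKM of both kinases in control and 65.7% ± 0.795 in target libraries (two-sided exact permutation p = 0.1).

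AMOTL2, an angiomotin-like scaffold that holds YAP at cell junctions, lies on chromosome 3 at 134074716 to 134094321, minus strand. It measured 42.1, 24.4 and 28.6 FPKM in control and 43.7, 45.2 and 28.02 FPKM in target libraries. High and low libraries occurred in both groups, so the means of 31.7 ± 9.27 and 39.0 ± 9.52 FPKM overlapped (limma adjusted p = 0.609). AJUBA, a LIM-domain protein that restrains LATS kinases, lies on chromosome 14 at 23440383 to 23451851, minus strand. It measured 12.4, 10.1 and 18.1 FPKM in control and 11.5, 10.3 and 10.7 FPKM in target libraries (limma adjusted p = 0.548). C3 stood above all other libraries, and without it the log2 change went from -0.26 to -0.05. AJUBA overlaps the gene model RP11-298I3.5 on the same strand, so reads may be shared between them.

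PTPN14, a phosphatase that binds YAP and keeps it out of the nucleus, lies on chromosome 1 at 214522039 to 214725792, minus strand. It measured 11.9, 12.9 and 4.73 FPKM in control and 4.14, 3.87 and 14.2 FPKM in target libraries. C1, C2 and T3 were high and C3, T1 and T2 were low, so the split did not follow the shRNA (limma adjusted p = 0.698). The highest library was 3.67 times the lowest. Among tested genes that averaged 5 FPKM or more, 1.4% had a highest library at least 3 times the lowest. The log2 change was -0.47 with an interval from -1.76 to 0.82, and it lay at -1.01 without T3, -0.88 without C3 and -0.19 without T2.

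By mean level over the 6 libraries, YAP1 (61.9 FPKM) stood first, followed by TEAD1 (47.7), CYR61 (41.7), AMOTL2 (35.3), WWTR1 (12.5), AJUBA (12.2), LATS2 (9.45), PTPN14 (8.62) and CTGF (4.37). FPKM is a level per length, which allows a comparison between genes, but the order depends on how a gene's level is taken. By the sum over listed transcripts, PTPN14 (13.9 FPKM in control, 11.1 in target libraries) stood above LATS2 (9.53 in both groups). The ranges and ranks that follow are those of the gene values. YAP1 and TEAD1 did not overlap in any library, while CYR61 overlapped both TEAD1 and AMOTL2. The ranges of WWTR1 and AJUBA overlapped. That of PTPN14 took in the whole ranges of LATS2 and WWTR1 and overlapped those of AJUBA and CTGF. YAP1 was higher than 95.8% of all genes in the table, and CTGF higher than 42.9%.

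The transcripts of the members were then compared, since a gene's value can hide an exchange between isoforms. Of the 36 listed transcripts 26 reached the filter of at least 1 FPKM in at least 3 libraries, and 0 passed, where 0.287% of all tested transcripts did, 0.148% higher and 0.139% lower in target libraries (limma, adjusted over 20890 transcripts). At an unadjusted p under 0.05 there was 1, CYR61-001, where 7.4% of all tested transcripts lay. Groups did not overlap for 2 with target libraries lower, CYR61-001 and CTGF-001 (6.07% of all tested transcripts), and for 2 with target libraries higher, YAP1-201 and TEAD1-007 (9.12%). Isoforms of these factors share exons, and FPKM per transcript depends on how the authors' tool divided shared reads. The other tested transcripts, 22 of 26, had overlapping groups.

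**Figure D3:**
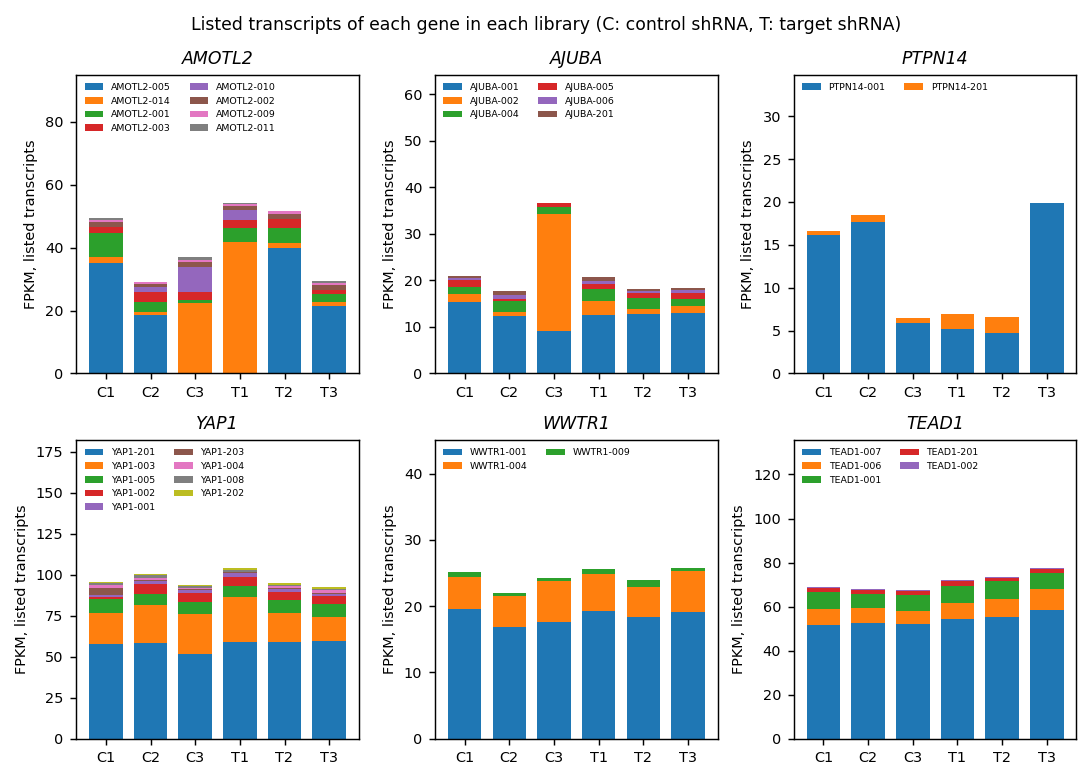
FPKM of the listed transcripts of AMOTL2, AJUBA, PTPN14, YAP1, WWTR1 and TEAD1, stacked for each gene, in each control (C1 to C3) and target (T1 to T3) library. AMOTL2-014 (orange) is high and AMOTL2-005 (blue) at or near 0 in C3 and T1, AJUBA-002 is high only in C3, and the transcripts of WWTR1 and TEAD1 keep similar proportions in all 6 libraries.

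YAP1, WWTR1 and TEAD1 kept the same leading isoform in all 6 libraries. YAP1-201 made up 57.6% ± 2.55 of the summed FPKM of the 9 listed YAP1 transcripts in control and 61.1% ± 3.93 in target libraries (SD, n = 3 per group). It measured 55.8 and 59.3 FPKM (limma adjusted p = 0.805). WWTR1-001 made up 75.7% ± 2.63 and 75.3% ± 1.35 of the WWTR1 sum. TEAD1-007, a model of the 3′ part of the gene that begins 204852 bases downstream of the first listed TEAD1 start, made up 76.4% ± 1.36 and 75.4% ± 0.159 of the TEAD1 sum. These proportions differed between the groups by about the spread between libraries or less.

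AMOTL2 showed an exchange between isoforms that did not follow the shRNA. AMOTL2-005 measured 35.0, 18.4 and 0.0086 FPKM in control and 0, 40.1 and 21.5 FPKM in target libraries. AMOTL2-014 measured 1.92, 1.16 and 22.3 FPKM in control and 41.8, 1.60 and 1.12 FPKM in target libraries. In C3 and T1 the first was thus at or near 0 and the second was high, and in the other 4 libraries the reverse held. The start of AMOTL2-014 falls exactly at start 2 of the windows printed above, the one with a CATTCC match. AMOTL2-005 begins 1032 bases upstream of it, nearest to start 1, which has no match. At least 1 match was found in 14% of all windows. AMOTL2-001 and AMOTL2-002 are also nearest to start 2. AMOTL2-001 measured 7.92, 3.24 and 0.942 FPKM in control and 4.55, 4.47 and 2.60 FPKM in target libraries. AMOTL2-002 lay between 0.987 and 1.62 FPKM. AMOTL2-010, which begins further downstream, was highest in C3 (7.87 FPKM) and T1 (3.15 FPKM). The part of the match in the exchange was not tested. In GENCODE release 29 (GRCh38), 93.5% of the runs of 31 bases in AMOTL2-005 also occur in AMOTL2-014, so most of their reads cannot tell them apart. The part of read division in this exchange was not tested. The sum over the 8 listed AMOTL2 transcripts still ranged from 29.1 to 54.3 FPKM, with a log2 change of 0.21 (limma adjusted p = 0.811).

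In AJUBA, the high gene value of C3 came with a single isoform. AJUBA-002, a shorter model that starts 5419 bases downstream of AJUBA-001, measured 25.1 FPKM in C3 and between 0.873 and 2.96 FPKM in the other 5 libraries. AJUBA-001 measured 9.15 FPKM in C3 and between 12.3 and 15.4 FPKM in the others. In PTPN14, the long transcript PTPN14-001 carried the split of the gene, at 16.1, 17.6 and 5.85 FPKM in control and 5.13, 4.75 and 19.9 FPKM in target libraries. Of the 5 PTPN14 transcripts in GENCODE release 29, 2 were listed in the table, so an exchange with the others was not analysed here. A highest library at least 3 times the lowest was found for 23.7% of the tested transcripts averaging 5 FPKM or more, against 1.4% of such genes.

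The other genes of the pathway were taken from 3 lists, chosen like the members with earlier results of these data known. Among 26 tested Hippo core and upstream genes, 0 passed in either direction (0 higher, 0 lower), with 2 at an unadjusted p under 0.05 and a median log2 change of 0.01. Over all tested genes, 0.749% passed, 16.1% lay at an unadjusted p under 0.05 and the median was 0.03. Groups did not overlap for 3 of the 26 with target libraries higher (16.6% of all tested genes) and for 1 with target libraries lower (7.18%). MOB1A, the coactivator of LATS kinases, had the smallest p and measured 22.2 ± 0.942 and 24.3 ± 0.402 FPKM (SD, n = 3 per group), with target libraries all higher (limma adjusted p = 0.270). LIMD1, a relative of AJUBA, measured 8.21 ± 0.142 and 8.94 ± 0.148 FPKM (adjusted p = 0.296). WWC2, a scaffold that activates LATS, measured 8.70, 9.05 and 5.91 FPKM in control and 5.65, 5.92 and 6.20 FPKM in target libraries. Its means were 7.89 ± 1.72 and 5.93 ± 0.275 FPKM (adjusted p = 0.321). The groups of WWC2 overlapped, with C3 within the range of the target libraries. The most abundant was PPP2R1A, the scaffold of protein phosphatase 2A, at 26.5 and 25.7 FPKM. AMOT was not among the genes analysed here.

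Of 22 tested TEAD genes and nuclear or cytoplasmic partners, 0 passed in either direction (0 higher, 0 lower). There were 3 at an unadjusted p under 0.05 (16.1% of all tested genes), and the median log2 change was 0.01. Groups did not overlap for 2 with target libraries higher (16.6% of all tested genes) and for 3 with target libraries lower (7.18%). JUN, an AP-1 factor that acts with YAP and TEAD at enhancers, measured 77.9, 75.9 and 80.5 FPKM in control and 71.3, 70.2 and 69.3 FPKM in target libraries. All target libraries were lower, with a log2 change of -0.15 (limma adjusted p = 0.162). VGLL4, which competes with YAP for TEAD, measured 9.36 ± 0.413 and 10.3 ± 0.275 FPKM with target libraries all higher (adjusted p = 0.309). The most abundant were YWHAQ, a 14-3-3 protein, at 142 and 145 FPKM, and the AP-1 factor JUNB, at 116 and 110.2 FPKM. The 14-3-3 proteins hold phosphorylated YAP in the cytoplasm.

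Among 26 tested other target genes of YAP and TAZ, 0 passed in either direction in limma, where 0.534% of all tested genes were higher and 0.215% lower, and 4 lay at an unadjusted p under 0.05 (16.1% of all tested genes). FSTL1, a secreted glycoprotein, had the smallest p and measured 15.2, 12.9 and 13.3 FPKM in control and 9.37, 10.2 and 9.72 FPKM in target libraries (limma adjusted p = 0.064). NT5E, the ecto-enzyme CD73, measured 11.8, 11.7 and 11.8 FPKM in control and 9.49, 9.77 and 9.98 FPKM in target libraries (adjusted p = 0.079). AMIGO2, a cell adhesion protein, measured 12.2, 14.4 and 14.2 FPKM in control and 11.01, 10.1 and 10.7 FPKM in target libraries (adjusted p = 0.124). All 3 were lower in every target library without passing, where 7.18% of all tested genes were lower in this way. They were named for the 3 smallest p of the list, and that choice favours groups that do not overlap.

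IGFBP3, an insulin-like growth factor binding protein, had the highest mean of these targets, at 312 ± 12.8 and 312 ± 9.12 FPKM (SD, n = 3 per group). F3, the coagulation initiator tissue factor, came next and measured 132 ± 5.48 and 116 ± 1.73 FPKM, with target libraries all lower (limma adjusted p = 0.147). MYC, a growth regulator, measured 3.44, 35.3 and 3.28 FPKM in control and 3.15, 2.50 and 1.31 FPKM in target libraries, so its mean difference rests on C2. In all, the groups did not overlap for 7 of the 26 with target libraries lower (7.18% of all tested genes) and for 1, the receptor tyrosine kinase AXL, with target libraries higher (16.6%). The median log2 change of these targets was -0.0078, beside 0.03 for all tested genes. The summed level of the 28 in the table was 839.9 to 892 FPKM in control and 829.9 to 834 FPKM in target libraries, and the control sums include the C2 value of MYC and the higher control values of F3.

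The summed marker levels were also lower in all target libraries than in all control libraries. The summed level of the 13 fibroblast and mesenchymal markers was 529.6 to 552 FPKM in control and 466 to 490.0 FPKM in target libraries. That of the 10 epithelial markers was 519 to 540.4 FPKM in control and 491 to 502 FPKM in target libraries. The sums include the higher control means of COL5A1 (260 and 221 FPKM), VIM (203 and 187) and KRT7 (175 and 163). CLDN4 measured 10.5 FPKM on average in control and 10.6, 0.0586 and 0.175 FPKM in target libraries. The means of COL1A1, TWIST1, ACTA2, MUC1 and TFF1 were higher in target libraries. Of 10 tested mesenchymal markers 0 passed as higher and 0 as lower (0.534% and 0.215% of all tested genes). The groups were apart with target libraries lower for 3 of them, COL5A1, CDH2 and FN1 (7.18% of all tested genes). Of 9 tested epithelial markers 0 passed as higher and 0 as lower, beside the same shares of all tested genes. Here the groups were apart with target libraries lower for 2, ELF3 and KRT7 (7.18% of all tested genes). The part of the marker genes in the values of CYR61 and CTGF was not tested.

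**Figure D4:**
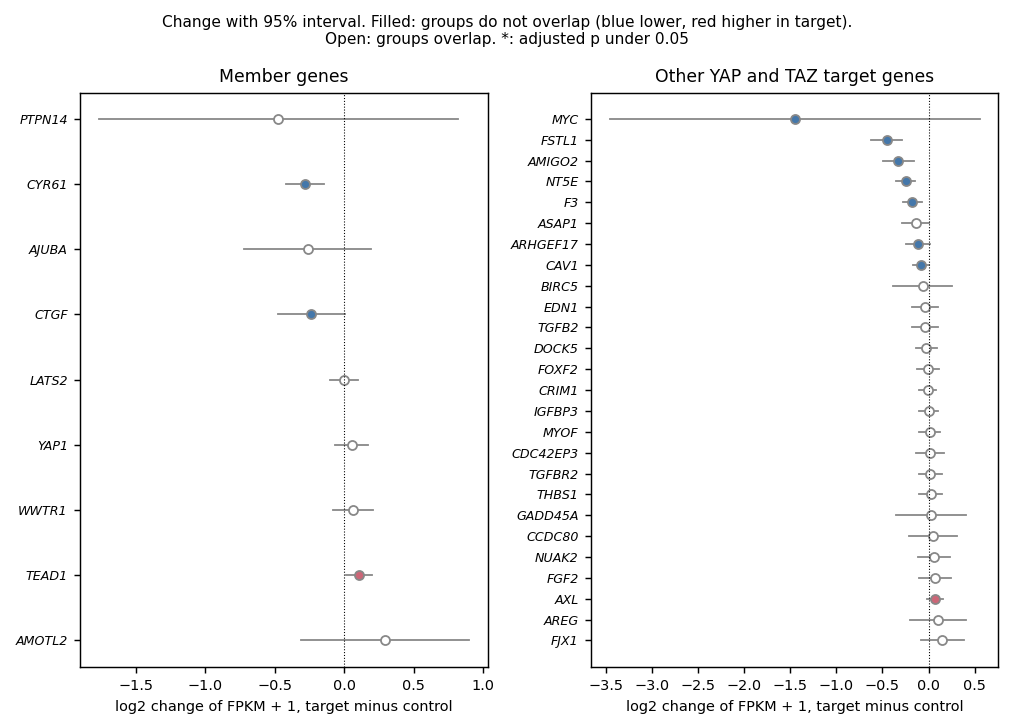
Log2 change of FPKM + 1, target minus control, with its 95% interval, for the 9 member genes and 26 other YAP and TAZ target genes tested. Filled points mark genes whose groups do not overlap, blue where target libraries are lower (CYR61 at -0.28, CTGF at -0.24) and red where they are higher (TEAD1 at 0.11), and none of these genes is past an adjusted p of 0.05.

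The genes whose pattern over the 6 libraries was most like that of CYR61 were sought among 6150 tested genes averaging 5 FPKM or more, by Pearson's r of log2(FPKM + 1), as a description. They were KDM1A, a histone demethylase (r = 0.994), YARS2, the mitochondrial tyrosine-tRNA ligase (0.991), and DHRS3, a retinal reductase (0.980). An r of at least 0.95 was reached by 25 genes. KDM1A measured 38.0, 39.3 and 36.9 FPKM in control and 31.9, 33.1 and 29.1 FPKM in target libraries. KDM1A was picked for its likeness to CYR61, so its lower target libraries and its lowest value in T3 follow from that choice. Target libraries were all lower for 7.18% of all tested genes. The change of KDM1A did not pass (limma adjusted p = 0.121).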

How the data were processed

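RNA-seq of 6 MKN45 libraries was compared, 3 per shRNA, grouped and numbered by the sample titles. Trizol RNA and Illumina library preparation are stated, per the labels' protocols. For genes and for transcripts, the values deposited by the authors are FPKM. The builds hg19 and GRCh37 are from the submitters' processing notes. The aligner is not given in the sources used here, nor are the quantification tool, the annotation version, strandedness or depth.

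The fit used limma 3.58.1 (trend; R 4.3.3) on log2(FPKM + 1), for features reaching 1 FPKM in 3 or more of 6 libraries (10675 genes, 20890 transcripts), with Benjamini-Hochberg adjustment at 0.05. Signed changes are target minus control, and errors are SDs or moderated SEs. Single shares were compared by exact permutation. Tables and plots used pandas 2.3.3 and matplotlib 3.10.9 under Python 3.11.15. The fit was tested on simulated data, where it recovered no changed gene and no changed transcript at the smallest difference tried. At the largest difference it recovered most changed genes but only a minority of changed transcripts. A count of 0 thus does not show that small differences are absent or, for transcripts, that large ones are. Alternatives were the pseudocount, filters, quantile and median scaling, limma without trend or robust, a replicate block and leaving out each library.

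Members and lists were chosen with earlier results of these data known. All members were named, and from each list genes past the threshold, the 3 of smallest p and the 2 of highest mean. TEAD3, TEAD4, LATS1, AXL, MYC and the markers named singly were added after their values were seen, as were the count of genes with a wide range, the sum over listed transcripts and the promoter motif. One gene of the list of other targets is not reported here and was left out of that list's counts, median, sum and plot. Promoters matched 8 of 10 members, by symbol or by gene identifier.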

Additional observations from a re-analysis of the deposited data

How the results depend on the processing

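Of 10675 genes 80 passed, and 52 did among genes averaging 5 FPKM or more, 23 to 42 without 1 library, and 29 with the sum over listed transcripts, an alternative chosen after seeing the data. Of 20890 transcripts 60 passed, 39 with a pseudocount of 0.1, 18 averaging 5 FPKM or more, and 33 to 53 without 1 library. With the replicate number as a block 10 genes and 0 transcripts passed. Deviations of same-numbered libraries from their group means correlated at -0.005, 0.023 and 0.065 across genes. Over all pairs of a control with a target library, the lowest was -0.058 (C2 with T3) and the highest 0.065 (C3 with T3). C1 correlated best with T2, at 0.016. Whether same-numbered libraries share a batch was not tested.

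No member gene passed in any of these settings. Their directions held, except that the log2 change of LATS2 ranged from -0.0134 to 0.0065 without 1 library. Of the leading transcripts, the change of AMOTL2-005 ranged from -1.44 to 1.77, that of AJUBA-001 from -0.10 to 0.25 and that of LATS2-001 from -0.0109 to 0.0064 without 1 library, and the others kept their direction. Without C3 or T1, AMOTL2-005 loses 1 of the libraries where it was at or near 0. CTGF, at a mean of 4.37 FPKM, has no value under the filter of 5 FPKM. The unknown depth limits what can be said of low genes such as CTGF.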
